A study of Mus musculus with 12 samples.

Results

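The genes described here encode the enzymes that write and erase the chemical marks on histones and DNA, with the chromobox proteins that read them. Their RNA was measured in mouse cells labelled as having a knockout or knockdown of prohibitin (Phb). They were chosen by gene name alone: lysine methyltransferases (Kmt, Setd, Suv39h, Ehmt, Ezh), demethylases (Kdm), acetyltransferases (Kat), deacetylases (Hdac, Sirt), DNA methyltransferases and oxidases (Dnmt, Tet), arginine methyltransferases (Prmt) and chromobox proteins (Cbx). The rule found 90 of the 37637 gene names in the spermatocyte table and 88 of the 24600 in the table of GC2 cells, where Prmt8 and Dnmt3c have no row.

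RNA was sequenced from 12 libraries in 4 groups of 3. These are sorted spermatocytes of mice with a conditional knockout of Phb (Phb-cKO), sorted spermatocytes of control mice, GC2 cells with a PHB knockdown, and control GC2 cells. The spermatocytes had been sorted by their staining with the DNA dye Hoechst, and GC2 is a cultured mouse line that the labels describe as spermatocytes. Nothing in the sources used here gives the Cre line behind the deletion, the strain and age of the mice or how the knockdown was made. The libraries are labelled as biological replicates, but no culture or animal is named for any of them. The p-values therefore cover the spread between the libraries sequenced, part of which may be technical.

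Histone marks are set by opposing enzymes. Methylation of H3K4 and acetylation go with active genes, methylation of H3K9 and H3K27 with silent ones, and each lysine has its own methyltransferases and demethylases. In the male germ line this machinery is known for silencing the X and Y chromosomes in pachytene spermatocytes, for repressing transposons through DNA methylation in fetal germ cells, and for the wave of histone acetylation before sperm chromatin is packed with protamines. Phb encodes prohibitin, a subunit of a ring complex in the inner mitochondrial membrane.

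Values are FPKM, fragment numbers divided by transcript length and library size, in the order of the replicate numbers. Rows under 1 FPKM in more than 3 of the 6 libraries of a table were not tested. Fold changes are differences of log2(FPKM + 1), which understate the change of low genes, with the standard error (SE). All adjusted p-values are from limma with Benjamini-Hochberg adjustment over every tested row of a table, two-sided, and a row counts as higher or lower at an adjusted p under 0.05. The spermatocyte and GC2 tables were made on different sets of rows, so their levels are set side by side without a test.

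Library quality and labels were looked at first. Phb itself had 22.66, 18.37 and 19.02 FPKM in knockdown GC2 cells, against 56.62, 53.99 and 52.36 FPKM in control GC2 cells (log2 fold change -1.40, SE 0.0896, limma adjusted p = 0.00062). In Phb-cKO spermatocytes it had 11.81, 11.33 and 11.53 FPKM, against 12.6, 13.35 and 13.86 FPKM in control spermatocytes (-0.18, SE 0.0423, limma adjusted p = 0.0074), so the groups did not overlap but differed little. The FPKM totals were 290427 to 297362 in Phb-cKO and 289707 to 292931 in control spermatocytes, and 194949 to 201776 in knockdown and 203973 to 206711 in control GC2 cells. Rows of the mitochondrial genome took 17.065% to 19.489% of the total in Phb-cKO and 12.152% to 13.603% in control spermatocytes. Most listed germ cell markers were under the filter or without a row in GC2 cells. Of 12 leptotene and zygotene markers 2 were tested (sums of 2.21 to 2.24 FPKM in knockdown, 3.02 to 3.32 FPKM in control cells). Of 12 pachytene and diplotene markers 1 was tested (2.5 to 7.4 FPKM in knockdown, 2.06 to 2.88 FPKM in control cells). Of 12 spermatogonial markers 1 was tested, and it was higher (sums of 47.2 to 59.6 FPKM in knockdown, 29.3 to 34.4 FPKM in control cells). Ddx4, of the spermatogonial list, averaged 0.1 FPKM in knockdown and 0.07 FPKM in control cells. Sycp3 averaged 0.113 FPKM in knockdown and 0.0333 FPKM in control cells. Other lists differed between the GC2 groups too. Of 2 tested myoid and endothelial markers 1 was lower, with list sums of 24.6 to 34.8 FPKM in knockdown and 106 to 114 FPKM in control cells. Of 6 tested fibroblast-like and epithelial markers 3 were higher and 3 lower (940 to 994 and 688 to 784 FPKM). Of 5 Sertoli cell markers 2 were higher, of 3 immune cell markers 1 was lower, and of 12 proliferation genes 2 were higher.

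Levels of cell type markers differed between the groups of spermatocyte libraries, beside every spermatocyte result below. All 12 markers of pachytene and diplotene spermatocytes were lower in Phb-cKO, with a summed level of 49.0 to 51.4 FPKM in Phb-cKO against 3210 to 3270 FPKM in controls, and all 12 spermatid markers were lower, with 9.7 to 12.5 FPKM in Phb-cKO against 837 to 875 FPKM in controls. All 14 Sertoli cell markers were higher (3570 to 3730 FPKM in Phb-cKO, 856 to 945 FPKM in controls), as were all 8 tested Leydig cell markers (291 to 308 FPKM in Phb-cKO, 49.4 to 52.0 FPKM in controls). All 8 tested markers of peritubular myoid and endothelial cells were higher too (62.2 to 63.5 FPKM in Phb-cKO, 31.7 to 33.3 FPKM in controls), with 7 of 8 immune cell markers (36 to 41.2 FPKM in Phb-cKO, 17.8 to 24.2 FPKM in controls) and all 4 tested erythrocyte markers (184 to 189 FPKM in Phb-cKO, 95.5 to 106 FPKM in controls). Of 12 leptotene and zygotene markers 9 were lower and 3 higher (304 to 314 FPKM in Phb-cKO, 467 to 480 FPKM in controls), and of 12 spermatogonial markers 7 were lower and 2 higher (343 to 354 FPKM in Phb-cKO, 438 to 441 FPKM in controls). Of 12 proliferation genes 7 were lower and 1 higher, and of 8 tested fibroblast-like and epithelial markers 5 were lower and 1 higher. No list had a marker at 0 in every library. In bulk RNA fewer cells of a type and less RNA per cell cannot be told apart, and the part of cell type in the changes of the enzymes was not tested.

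In Phb-cKO spermatocytes the enzymes moved more often up than down. Of the 84 tested, 47 were higher and 22 lower than in control spermatocytes (56.0% and 26.2%), while over all 15957 tested rows 40.9% were higher and 38.5% lower. The median log2 fold change was 0.33 over the enzymes and 0.05 over all rows. Calls as such were near the background, at 82.1% of the enzymes and 79.4% of all rows, and groups did not overlap for 72 of the 84 (85.7%, against 81.8% of all rows). Changes of at least 2-fold on the log2(FPKM + 1) scale numbered 10 upward and 5 downward, where 11.6% of all rows rose and 21.6% fell by that much. Another scaling shifts the whole comparison: with quantile normalization the median of all rows was 0.28 and the enzymes split into 57 higher and 18 lower, and after centring on the median of each chromosome into 55 and 16. The genes under the filter were Dnmt3l, Tet1, Hdac8, Hdac9, Sirt5 and Prmt8, and 11 genes share their row with another gene name, as given where they are described.

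**Figure D1:**
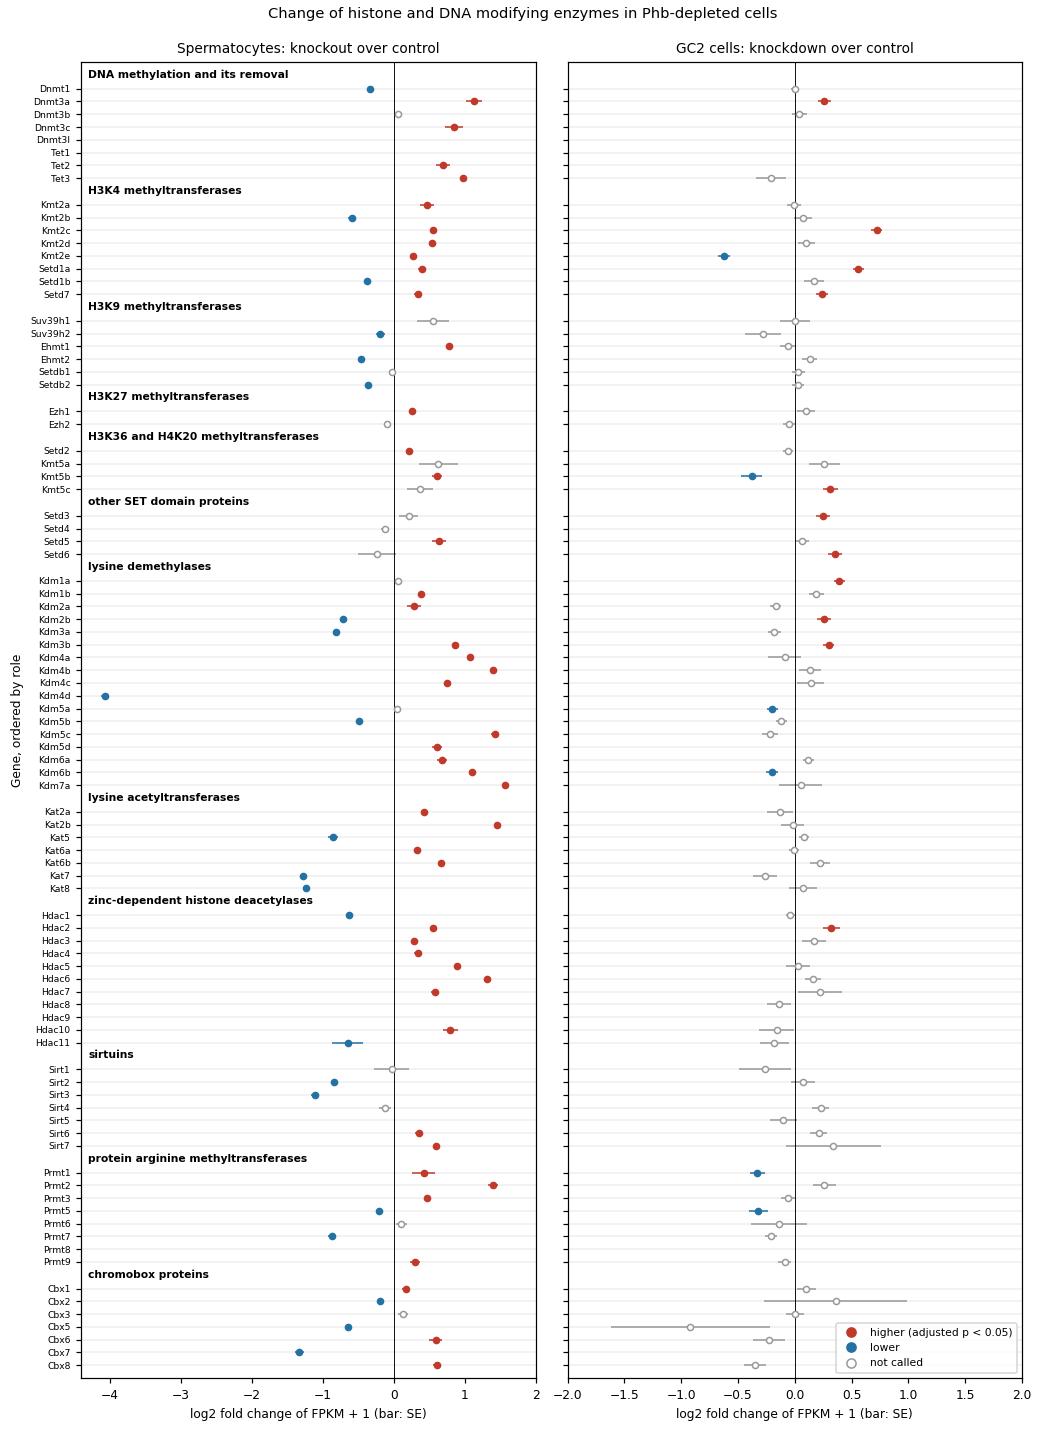
Log2 fold change of FPKM + 1 (x axis, bars are the SE) of the tested enzymes, with genes down the page by role, for Phb-cKO over control spermatocytes (left) and knockdown over control GC2 cells (right, narrower scale). Filled points are called at an adjusted p under 0.05, red higher and blue lower, and Kdm4d (-4.07) lies far to the left of the other genes in spermatocytes.

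The plot of changes by role shows one change far beyond the others, that of Kdm4d, a demethylase of H3K9 that in mice is expressed mainly in testis. Kdm4d (ENSMUSG00000053914.9, chromosome 9, 14462548 to 14500482, minus strand, GRCm38) had 0.99, 0.92 and 0.76 FPKM in Phb-cKO spermatocytes, against 29.87, 31.37 and 31.07 FPKM in control spermatocytes. Its mean was 34.6-fold lower (log2 fold change -4.07, SE 0.0563, limma adjusted p = 2.6e-08). All 3 Phb-cKO libraries lay far below all 3 controls, and it passed the filter only through the controls. Reads may be shared with its near copy Kdm4dl, a gene outside the rule, which had 0.97, 0.57 and 0.69 FPKM in Phb-cKO and 2.11, 2.34 and 1.48 FPKM in controls. In GC2 cells Kdm4d was listed at 0.05 FPKM or less in every library. The 12 markers of pachytene and diplotene spermatocytes moved beside it with a median log2 fold change of -6.10, and their part in its fall was not tested.

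The promoters of Kdm4d and Cbx7, the largest falls, of Kdm7a, the largest rise, and of Kdm5c, the largest rise of an X-linked enzyme, are shown as the start regions of genes that changed most. Each runs from 250 bases before to 50 bases after the start of the gene, in RefSeq for GRCm38.p6, which held 75 of the 90 genes. Capitals mark AACNG on either strand, the core of the motif of MYB factors such as Mybl1, a regulator of pachytene spermatocytes.
Kdm4d: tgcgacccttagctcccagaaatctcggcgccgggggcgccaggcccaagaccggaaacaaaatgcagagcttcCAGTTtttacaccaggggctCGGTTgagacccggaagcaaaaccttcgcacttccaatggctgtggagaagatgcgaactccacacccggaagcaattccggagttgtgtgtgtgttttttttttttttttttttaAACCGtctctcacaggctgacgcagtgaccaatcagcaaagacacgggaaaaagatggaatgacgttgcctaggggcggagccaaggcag
Cbx7: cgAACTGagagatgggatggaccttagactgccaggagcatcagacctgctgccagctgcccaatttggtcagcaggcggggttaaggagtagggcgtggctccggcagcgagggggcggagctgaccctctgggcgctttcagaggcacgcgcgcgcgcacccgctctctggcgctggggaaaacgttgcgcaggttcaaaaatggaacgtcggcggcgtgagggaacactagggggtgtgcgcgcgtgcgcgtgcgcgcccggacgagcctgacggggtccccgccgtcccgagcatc
Kdm7a: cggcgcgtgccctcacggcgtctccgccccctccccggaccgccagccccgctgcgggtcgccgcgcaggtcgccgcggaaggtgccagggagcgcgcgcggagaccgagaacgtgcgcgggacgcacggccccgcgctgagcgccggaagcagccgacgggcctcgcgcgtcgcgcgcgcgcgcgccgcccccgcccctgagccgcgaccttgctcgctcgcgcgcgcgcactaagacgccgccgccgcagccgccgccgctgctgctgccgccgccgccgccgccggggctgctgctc
Kdm5c: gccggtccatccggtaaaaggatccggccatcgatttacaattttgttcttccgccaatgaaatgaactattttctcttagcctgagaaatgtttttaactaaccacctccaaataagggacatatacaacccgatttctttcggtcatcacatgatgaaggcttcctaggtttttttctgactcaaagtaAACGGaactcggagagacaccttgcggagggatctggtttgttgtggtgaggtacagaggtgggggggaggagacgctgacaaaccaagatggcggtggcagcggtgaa
The windows are chr9:14500433-14500732 for Kdm4d, chr15:79932597-79932896 for Cbx7 and chr6:39206724-39207023 for Kdm7a, all on the minus strand, and chrX:152232977-152233276 on the plus strand for Kdm5c. The motif AACNG was found 3 times in Kdm4d, once each in Cbx7 and Kdm5c and not in Kdm7a, and 80.3% of 32851 RefSeq promoters hold it. Neither the cAMP response element TGACGTCA (1.79% of promoters) nor the E-box CACGTG (7.15%), each read on both strands, was found in these windows, so no overlap with AACNG arises. The count of CG dinucleotides was 65 in Kdm7a, 33 in Cbx7, 17 in Kdm4d and 13 in Kdm5c, against a median of 7 over all promoters.

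**Figure D2:**
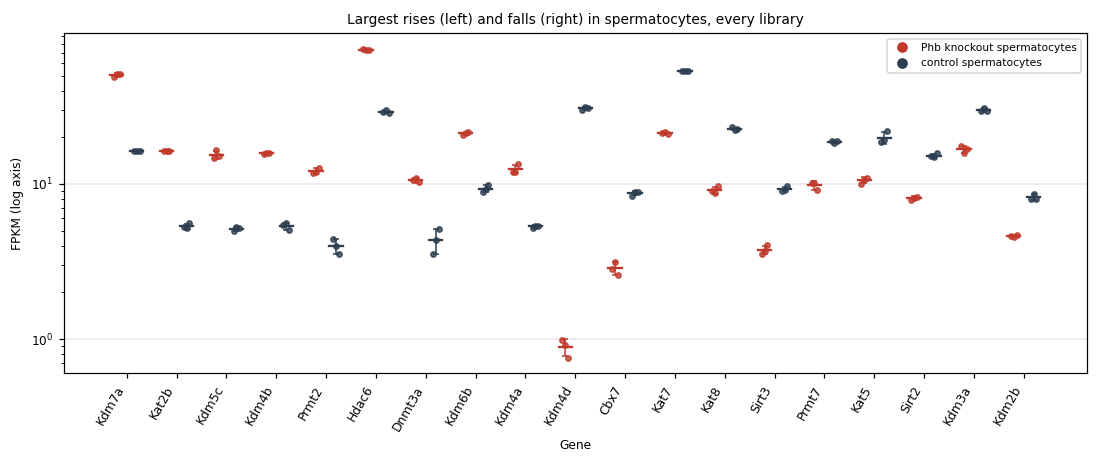
FPKM on a log axis of each library for the largest called rises and falls in spermatocytes, with points for libraries, long lines for the mean and bars for the SD (n = 3). Phb-cKO (red) lies left of its control (dark) for each gene, with Kdm4d at 0.76 to 0.99 in Phb-cKO and 29.87 to 31.37 in controls. No pair of groups of these called genes overlaps, where groups of 81.8% of all tested rows did not.

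Of the enzymes of DNA methylation and its removal, 4 of 6 tested were higher and 1 lower in Phb-cKO spermatocytes. Of all rows 40.9% were higher and 38.5% lower. Among the 4, Tet2 reached 1 FPKM only in Phb-cKO libraries, and Dnmt3c in those and 1 control. Without a filter 5 of 8 were higher and 2 lower. Dnmt1, which copies methylation after replication, had 28.28, 28.43 and 28.73 FPKM in Phb-cKO spermatocytes, against 36.59, 36.39 and 35.55 FPKM in controls (log2 fold change -0.33, SE 0.0238, limma adjusted p = 2.7e-05). Dnmt3a, a de novo methyltransferase, had 10.54, 11.0 and 10.22 FPKM in Phb-cKO and 3.54, 4.36 and 5.1 FPKM in controls (1.13, SE 0.109, limma adjusted p = 0.00012). Every Phb-cKO library was below the controls for Dnmt1 and above them for Dnmt3a. Dnmt3b, the other de novo enzyme common to mammals, had 10.71, 10.21 and 10.5 FPKM in Phb-cKO and 10.27, 9.65 and 10.0 FPKM in controls, and these groups overlap (0.06, SE 0.0369). Dnmt3c, a rodent copy of Dnmt3b that methylates young transposons in male germ cells, had 2.06, 3.11 and 2.53 FPKM in Phb-cKO and 0.98, 0.75 and 1.17 FPKM in controls (0.85, SE 0.133, limma adjusted p = 0.0012), and reads shared with Dnmt3b leave its level uncertain. Dnmt3l, a cofactor without catalytic activity, was under the filter with 0.38, 0.3 and 0.37 FPKM in Phb-cKO and 1.08, 0.99 and 0.93 FPKM in controls.

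The Tet enzymes oxidise 5-methylcytosine. Tet3 and Tet2 were called higher in Phb-cKO spermatocytes, but Tet2 passed the filter only through its Phb-cKO libraries. Tet3 had 12.42, 12.12 and 11.92 FPKM in Phb-cKO and 5.65, 5.73 and 5.83 FPKM in controls (0.97, SE 0.0332, limma adjusted p = 9.4e-07). Tet2 had 1.61, 2.28 and 1.71 FPKM in Phb-cKO and 0.78, 0.71 and 0.83 FPKM in controls (0.69, SE 0.0971, limma adjusted p = 0.00079). Groups did not overlap for either, where those of 81.8% of all rows did not. Tet1 was under the filter with 0.8, 0.74 and 0.72 FPKM in Phb-cKO and 0.2, 0.24 and 0.27 FPKM in controls.

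Among the methyltransferases of H3K4, 6 rose and 2 fell of 8 tested, all called. Of all rows 79.4% were called, 40.9% higher and 38.5% lower. Kmt2c and Kmt2d, the enzymes of enhancer monomethylation, rose together. Kmt2c averaged 10.8 ± 0.286 FPKM in Phb-cKO and 7.01 ± 0.25 FPKM in controls (0.56), and Kmt2d, on a row with Gm49437, 17.8 ± 0.214 FPKM in Phb-cKO and 12 ± 0.676 FPKM in controls (0.54; SD, n = 3 each). Kmt2b, on a row that also names Zbtb32, fell to 18.4 ± 1.36 FPKM in Phb-cKO, against 28.2 ± 0.573 FPKM in controls, while its paralog Kmt2a averaged 10.9 ± 1.3 FPKM in Phb-cKO and 7.53 ± 0.722 FPKM in controls (0.47, SE 0.1). Setd1a, on a row shared with Gm49388 and Hsd3b7, rose by 0.40, and Setd1b fell by 0.37 on the log2 scale, a call lost after chromosome centring (limma adjusted p = 0.13). Kmt2e, a family member without clear catalytic activity, rose by 0.27 and Setd7 by 0.34.

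Of 6 H3K9 methyltransferases 1 was higher and 3 lower, beside 40.9% and 38.5% of all rows, and this split depends on the scaling. It was 3 higher and 2 lower with quantile normalization and with median centring, and 2 and 1 after chromosome centring. Ehmt2 (G9a), which with Ehmt1 (GLP) sets H3K9 mono- and dimethylation, had 35.05, 34.59 and 33.83 FPKM in Phb-cKO spermatocytes, against 48.84, 49.43 and 45.23 FPKM in controls (-0.46, SE 0.04, limma adjusted p = 7.4e-05). Ehmt1, on a row with Gm37139, had 8.47, 8.36 and 8.66 FPKM in Phb-cKO and 4.42, 4.68 and 4.48 FPKM in controls (0.78, SE 0.0378, limma adjusted p = 4.4e-06). The partners of this complex thus moved in opposite directions, each without overlap. Setdb1, which silences transposons, had 28.74, 28.5 and 27.99 FPKM in Phb-cKO and 28.7, 29.88 and 28.72 FPKM in controls, an overlap, and it was not called (limma). It was called higher with quantile normalization (0.10, limma adjusted p = 0.013), median centring (0.13, 0.0065) and chromosome centring (0.14, 0.005). Setdb2, on a row with Phf11c, had 3.58, 3.6 and 3.39 FPKM in Phb-cKO and 5.08, 4.71 and 4.69 FPKM in controls (-0.36, SE 0.0478, limma adjusted p = 0.00054, and 0.41 after chromosome centring). Suv39h2, a trimethylase of heterochromatin prominent in testis, had 5.88, 5.44 and 6.36 FPKM in Phb-cKO and 7.21, 6.75 and 6.66 FPKM in controls (-0.19, limma adjusted p = 0.027), a call lost with quantile normalization (limma adjusted p = 0.5) and in 4 of 6 fits that leave out a library (0.057 to 0.084). Its X-linked paralog Suv39h1 had 14.83, 15.14 and 15.44 FPKM in Phb-cKO and 6.6, 12.26 and 12.39 FPKM in controls. It missed the threshold (0.55, SE 0.225, limma adjusted p = 0.065) with a low first control, without which the change was 0.28 with a limma adjusted p of 0.0011, and it passed at 0.049 without the third control too.

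The H3K27 methyltransferases of Polycomb repressive complex 2 (PRC2) changed little. Ezh1 had 9.4, 9.25 and 9.59 FPKM in Phb-cKO and 8.05, 7.51 and 7.47 FPKM in controls (0.26, SE 0.0402, limma adjusted p = 0.0011). Ezh2 had 9.36, 9.63 and 8.87 FPKM in Phb-cKO and 9.47, 10.07 and 10.4 FPKM in controls, and these overlap (-0.09, SE 0.0483). Setd2, the H3K36 trimethylase, averaged 18.9 ± 0.0757 FPKM in Phb-cKO and 16.1 ± 0.276 FPKM in controls (0.21), and Kmt5b, an H4K20 enzyme, 6.62 ± 0.653 FPKM in Phb-cKO and 3.99 ± 0.08 FPKM in controls (0.61). Its relatives Kmt5a and Kmt5c were not called: Kmt5a had 24.78, 24.37 and 11.68 FPKM in Phb-cKO and 11.82, 12.06 and 12.28 FPKM in controls, so 1 Phb-cKO library lay at the control level. Of the other SET domain proteins Setd5 rose by 0.64, and Setd3, Setd4 and Setd6 were not called.

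Lysine demethylases held 5 of the 10 rises of at least 2-fold and the largest fall. Of 17 tested 11 were higher and 4 lower, beside 40.9% and 38.5% of all rows. Kdm7a, an eraser of H3K9 and H3K27 methylation (ENSMUSG00000042599.8, chromosome 6, 39136623 to 39206789, minus strand), had 49.0, 50.81 and 51.49 FPKM in Phb-cKO spermatocytes, against 16.29, 16.21 and 16.28 FPKM in controls. That was the largest rise among the enzymes, 3.1-fold in means (log2 fold change 1.57, SE 0.0274, limma adjusted p = 5.8e-08). Kdm6b, an H3K27 demethylase, had 20.58, 21.43 and 21.59 FPKM in Phb-cKO and 8.83, 9.28 and 9.78 FPKM in controls (1.11, SE 0.0438, limma adjusted p = 1.8e-06). The H3K9 and H3K36 demethylases split within their own family. Kdm4b had 15.56, 15.86 and 15.75 FPKM in Phb-cKO and 5.46, 5.56 and 5.02 FPKM in controls (1.40, SE 0.0428), Kdm4a 11.89, 12.01 and 13.35 FPKM in Phb-cKO and 5.21, 5.37 and 5.38 FPKM in controls (1.08, SE 0.0514), and Kdm4c averaged 7.08 ± 0.105 FPKM in Phb-cKO and 3.8 ± 0.0513 FPKM in controls (0.75). Kdm4d, as given above, was the one member of this family that fell.

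The remaining falls were in Kdm3a, Kdm2b and Kdm5b. Kdm3a, an H3K9 demethylase needed for protamine expression in mouse spermatids, had 17.63, 15.74 and 16.82 FPKM in Phb-cKO and 29.39, 30.91 and 29.59 FPKM in controls (-0.81, SE 0.0469, limma adjusted p = 1e-05). Its paralog Kdm3b rose by 0.87 instead, with means of 12.2 ± 0.138 FPKM in Phb-cKO and 6.21 ± 0.271 FPKM in controls. Kdm2b, which recruits a variant of PRC1 to CpG islands and shares its row with Gm2479, had 4.61, 4.55 and 4.67 FPKM in Phb-cKO and 8.02, 8.65 and 7.99 FPKM in controls (-0.72, SE 0.043, limma adjusted p = 1.2e-05). Kdm5b, an H3K4 demethylase, averaged 17.1 ± 0.101 FPKM in Phb-cKO and 24.4 ± 0.0907 FPKM in controls (-0.49). Kdm1a (LSD1) and Kdm5a were not called, with 27.4 ± 1.05 and 12.7 ± 0.0252 FPKM in Phb-cKO and 26.2 ± 0.534 and 12.2 ± 0.195 FPKM in controls. Kdm1b rose by 0.39, and Kdm2a by 0.29 with overlapping groups and a limma adjusted p of 0.036, which was 0.06 without the filter and 0.052 to 0.1 in 5 of 6 fits that leave out a library.

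Lysine acetyltransferases rose in 4 and fell in 3 cases, with all 7 called, where 79.4% of all rows were called. The MYST family held changes in both directions. Of the MYST enzymes Kat7, Kat8 and Kat5 fell. Kat7 (HBO1), the most abundant of all these enzymes in control spermatocytes, had 21.35, 21.51 and 21.12 FPKM in Phb-cKO, against 53.29, 53.42 and 53.4 FPKM in controls (-1.28, SE 0.0215, limma adjusted p = 5e-08). Kat8 (MOF), the H4K16 acetyltransferase, had 9.03, 8.71 and 9.63 FPKM in Phb-cKO and 23.16, 22.37 and 22.49 FPKM in controls (-1.23, SE 0.042, limma adjusted p = 9.2e-07). Kat5 (TIP60) had 10.06, 10.67 and 10.96 FPKM in Phb-cKO and 18.55, 19.11 and 22.04 FPKM in controls (-0.85, SE 0.0709, limma adjusted p = 6e-05). In contrast Kat2b (PCAF), a coactivator enzyme of the GCN5 family, had 16.25, 16.41 and 16.35 FPKM in Phb-cKO and 5.27, 5.21 and 5.56 FPKM in controls (1.45, SE 0.0347, limma adjusted p = 2e-07). Its paralog Kat2a rose by 0.43, and Kat6a and Kat6b, the H3 acetyltransferases of the MYST family, by 0.33 and 0.66. No groups of these 7 overlapped, where 81.8% of all rows did not overlap.

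Among zinc-dependent deacetylases 7 of 9 were higher and 2 lower, beside 40.9% and 38.5% of all rows. Hdac6, a mainly cytoplasmic deacetylase of tubulin, is described with the X chromosome below. Hdac1 and Hdac2, close paralogs that share the NuRD, Sin3 and CoREST complexes, moved apart: Hdac1 averaged 33.4 ± 0.709 FPKM in Phb-cKO and 52.4 ± 0.311 FPKM in controls (-0.63, SE 0.0247, limma adjusted p = 1.7e-06), and Hdac2 42.0 ± 0.531 FPKM in Phb-cKO and 28.1 ± 0.787 FPKM in controls (0.56, SE 0.0289, limma adjusted p = 5.8e-06). The class II enzymes Hdac5 (row with Mir8101), Hdac10, Hdac7 and Hdac4 rose by 0.89, 0.80, 0.58 and 0.34, and Hdac3 rose by 0.29. Hdac11 fell by 0.65 with a limma adjusted p of 0.031, which was 0.13 with quantile normalization and 0.052 to 0.089 without 1 of the controls.

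Of 6 tested sirtuins, the NAD-dependent deacetylases, 2 rose and 2 fell, beside 40.9% and 38.5% of all rows. Sirt3, the main mitochondrial deacetylase, had 3.55, 3.71 and 4.02 FPKM in Phb-cKO and 9.03, 9.18 and 9.66 FPKM in controls (-1.11, SE 0.0521, limma adjusted p = 3.8e-06). Sirt2 had 7.83, 8.14 and 8.27 FPKM in Phb-cKO and 15.06, 14.92 and 15.73 FPKM in controls (-0.84, SE 0.0366, limma adjusted p = 2.8e-06). Sirt6 and Sirt7, nuclear enzymes, rose by 0.35 and 0.60, and the row of Sirt7 also names Mir6936 and Mafg. Sirt1 and Sirt4 were not called, and Sirt1 had 21.12, 13.38 and 12.75 FPKM in Phb-cKO and 11.5, 18.31 and 18.14 FPKM in controls, a wide spread in both. Mitochondrial Sirt5 was under the filter with a mean of 0.437 FPKM in Phb-cKO and 0.79 FPKM in controls.

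Arginine methyltransferases rose in 4 and fell in 2 of 7 cases, beside 40.9% and 38.5% of all rows. Prmt2, a coactivator enzyme on a row with Mir678, had 11.7, 11.86 and 12.76 FPKM in Phb-cKO and 4.41, 4.0 and 3.54 FPKM in controls (1.40, SE 0.0741, limma adjusted p = 6.7e-06). Prmt7, the enzyme of arginine monomethylation, had 10.17, 10.11 and 9.08 FPKM in Phb-cKO and 18.85, 18.25 and 18.8 FPKM in controls (-0.87, SE 0.0486, limma adjusted p = 8.8e-06). Prmt5, the main symmetric dimethylase, which modifies PIWI proteins in germ cells, had 17.32, 17.41 and 18.06 FPKM in Phb-cKO and 21.76, 19.68 and 20.17 FPKM in controls (-0.21, limma adjusted p = 0.0049), a difference that was 0.11 with a limma adjusted p of 0.063 after chromosome centring. Prmt1 had 52.97, 40.52 and 35.16 FPKM in Phb-cKO and 29.38, 29.75 and 34.94 FPKM in controls, a narrow gap (0.42, limma adjusted p = 0.045). Without 1 library the call was lost in 4 of 6 fits, at 0.063 to 0.12. Prmt3, on a row with Gm44822, and Prmt9 rose by 0.47 and 0.30, and Prmt6 was not called.

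The chromobox proteins read histone methylation, Cbx1, Cbx3 and Cbx5 (HP1 proteins) that of H3K9 and the others, subunits of PRC1, that of H3K27. Cbx7 had 2.85, 3.15 and 2.6 FPKM in Phb-cKO and 8.42, 8.81 and 8.9 FPKM in controls (-1.33, SE 0.0624, limma adjusted p = 3.8e-06). All 3 Phb-cKO libraries lay below the controls. Cbx8 rose by 0.61 and Cbx6, on a row with Nptxr and Npcd, by 0.59, while Cbx2 fell by 0.19, which was 0.06 after chromosome centring. Cbx5 averaged 12.4 ± 0.15 FPKM in Phb-cKO and 19.8 ± 0.0252 FPKM in controls (-0.64), Cbx1 rose by 0.17 with a limma adjusted p of 0.022, which was 0.053 to 0.065 without the first Phb-cKO library, the first control or the second, and Cbx3 was not called.

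Of the enzymes on the sex chromosomes, 3 of 4 tested on X and Kdm5d on Y were higher in Phb-cKO spermatocytes, as were most rows of these chromosomes. Of 651 tested rows of chromosome X 67.9% were higher and 12.7% lower, with a median of 0.66, and of 26 rows of chromosome Y 57.7% were higher and 7.69% lower. Kdm5c, an H3K4 demethylase (ENSMUSG00000025332.14, X, 152233020 to 152274535, plus strand), had 14.59, 16.43 and 15.25 FPKM in Phb-cKO and 4.96, 5.25 and 5.19 FPKM in controls (1.42, SE 0.0512, limma adjusted p = 1.2e-06). Hdac6 had 74.34, 73.35 and 72.85 FPKM in Phb-cKO and 29.0, 29.78 and 28.53 FPKM in controls (1.31, SE 0.0253, limma adjusted p = 8.7e-08), and it was the most abundant of the enzymes in Phb-cKO. Kdm6a (UTX), an H3K27 demethylase, had 5.02, 5.07 and 4.29 FPKM in Phb-cKO and 2.62, 2.78 and 2.42 FPKM in controls (0.68, SE 0.0736, limma adjusted p = 0.00021). Relative to the median of its chromosome Kdm6a was at 0.13 with a limma adjusted p of 0.16. Hdac8 was under the filter with 0.98, 0.87 and 1.09 FPKM in Phb-cKO and 0.39, 0.62 and 0.39 FPKM in controls. The Y-linked paralog of Kdm5c, Kdm5d, had 2.32, 2.73 and 2.63 FPKM in Phb-cKO and 1.33, 1.24 and 1.41 FPKM in controls (0.61, SE 0.0639, limma adjusted p = 0.00018, and 0.1 after chromosome centring). All 6 sex-linked members, with Suv39h1 and the untested Hdac8, had their lowest Phb-cKO library above their highest control. Over all tested rows, in either direction, groups did not overlap for 81.8%.

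**Figure D3:**
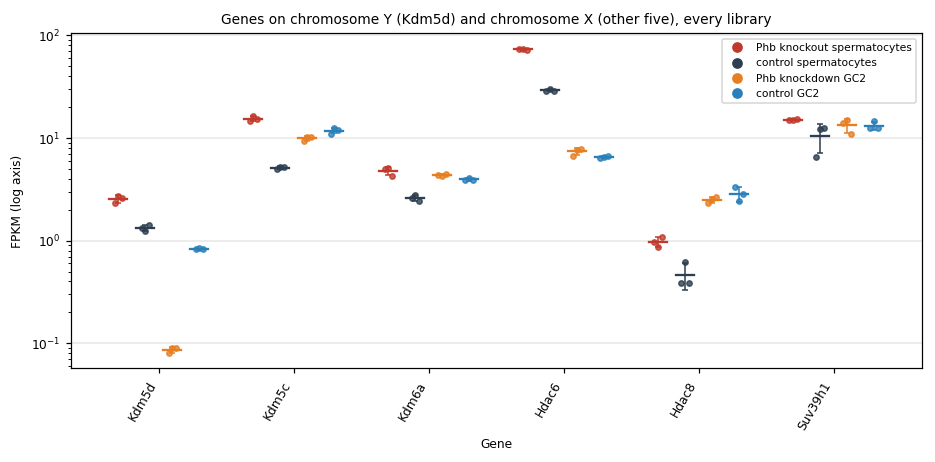
FPKM on a log axis of each library for the Y-linked enzyme Kdm5d and the 5 X-linked enzymes, in Phb-cKO spermatocytes (red), control spermatocytes (dark), knockdown GC2 cells (orange) and control GC2 cells (blue), with the mean and SD (n = 3). Phb-cKO lies above control spermatocytes in all 6 genes, and Kdm5d is at 0.08 to 0.09 in knockdown against 0.82 to 0.84 in control GC2 cells.

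The order of levels among the enzymes differed between the groups. The most abundant in Phb-cKO spermatocytes were Hdac6 (73.5 ± 0.758 FPKM), Kdm7a (50.4 ± 1.29 FPKM), Prmt1 (42.9 ± 9.14 FPKM) and Hdac2 (42.0 ± 0.531 FPKM), and the last 2 do not differ beyond their spread. In control spermatocytes these were Kat7 (53.4 ± 0.07 FPKM), Hdac1 (52.4 ± 0.311 FPKM), Ehmt2 (47.8 ± 2.27 FPKM) and Dnmt1 (36.2 ± 0.552 FPKM). The median enzyme had 10.6 FPKM in Phb-cKO and 7.27 FPKM in controls, where the median tested row had 4.95 FPKM in Phb-cKO and 5.61 FPKM in controls.

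The partners of these enzymes, from lists outside the name rule, changed in both directions, as did all rows, of which 40.9% were higher and 38.5% lower. Among PRC2 partners 4 of 8 tested rose and 3 fell, and Phf1, a Tudor protein that guides PRC2, averaged 6.52 ± 0.153 FPKM in Phb-cKO and 35.3 ± 1.41 FPKM in controls (-2.27, SE 0.0388, limma adjusted p = 5.4e-08). Of 15 PRC1 subunits 8 rose and 4 fell, with Pcgf6, of the germ cell gene repressor PRC1.6, at 6.84 ± 0.56 FPKM in Phb-cKO and 19.8 ± 0.338 FPKM in controls (-1.41). Of 9 partners of the H3K4 methyltransferases in COMPASS 2 rose and 4 fell, with Ash2l, a core subunit, at 11.2 ± 0.301 FPKM in Phb-cKO and 19.8 ± 0.106 FPKM in controls (-0.77). Of 11 readers and partners of DNA methylation 6 rose and 4 fell, and Uhrf1, which brings Dnmt1 to replicated DNA, fell as Dnmt1 did, with 20.9 ± 0.454 FPKM in Phb-cKO and 42.7 ± 0.36 FPKM in controls (-1.0, SE 0.0261, limma adjusted p = 2.9e-07).

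Beside the same shares of all rows, deacetylase complex subunits rose in 11 and fell in 6 of 18 cases, among them the corepressor Sin3b with 64.1 ± 0.541 FPKM in Phb-cKO and 30.4 ± 0.245 FPKM in controls (1.05). Other acetyltransferases and their partners rose in 16 and fell in 5 of 22 cases, with Trrap, a scaffold of Kat5 and Kat2a complexes, at 43.6 ± 0.857 FPKM in Phb-cKO and 22.8 ± 0.54 FPKM in controls (0.91). Other methyltransferases rose in 7 and fell in 3 of 14 cases, with the H3K36 enzymes Nsd1 at 0.54 and Nsd2 at -0.60. Other demethylases rose in 4 and fell in 2 of 9 cases, with X-linked Phf8 at 22.4 ± 0.281 FPKM in Phb-cKO and 8.64 ± 0.17 FPKM in controls (1.28). The bromodomain readers of acetylation rose in 3 and fell in 5 of 8 cases, and Brdt, the testis-specific member of the BET family, averaged 8.32 ± 0.402 FPKM in Phb-cKO and 38.2 ± 0.604 FPKM in controls (-2.07, SE 0.0394, limma adjusted p = 8.1e-08). The list medians ran between -0.29 for bromodomain readers and 0.27 for other acetyltransferases, beside 0.05 over all rows.

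In GC2 cells the enzymes changed little, with 11 higher and 7 lower in knockdown than in control cells of 78 tested (14.1% and 8.97%). Over all 10791 tested rows 10.7% were higher and 13.9% lower. Called enzymes made up 23.1%, against 24.5% of all rows, and groups did not overlap for 34 of the 78 (43.6%, against 44.9%). No tested enzyme changed by at least 2-fold on the log2(FPKM + 1) scale, where the changes ran from -0.92 to 0.72. Of all rows 1.3% were called with a rise and 2.21% with a fall of that size. Kdm5d, under the filter, is given with the sex chromosomes below. The median was 0.03 over the enzymes and -0.04 over all rows. The split depends on the scaling: it was 13 higher and 3 lower with quantile normalization, 12 and 3 with median centring, 11 and 3 as TPM and 11 and 2 after chromosome centring. Of the 18 calls only those of Kmt2c, Setd1a and Kdm1a held in each alternative run. Those of Dnmt3a, Hdac2, Kdm2b, Kdm5a, Kdm6b, Kmt5b, Kmt5c, Prmt1, Prmt5, Setd3 and Setd7 were lost in 4 to 6 of the 6 fits that leave out 1 library, each library ending some of them, at limma adjusted p-values of 0.05 to 0.13.

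**Figure D4:**
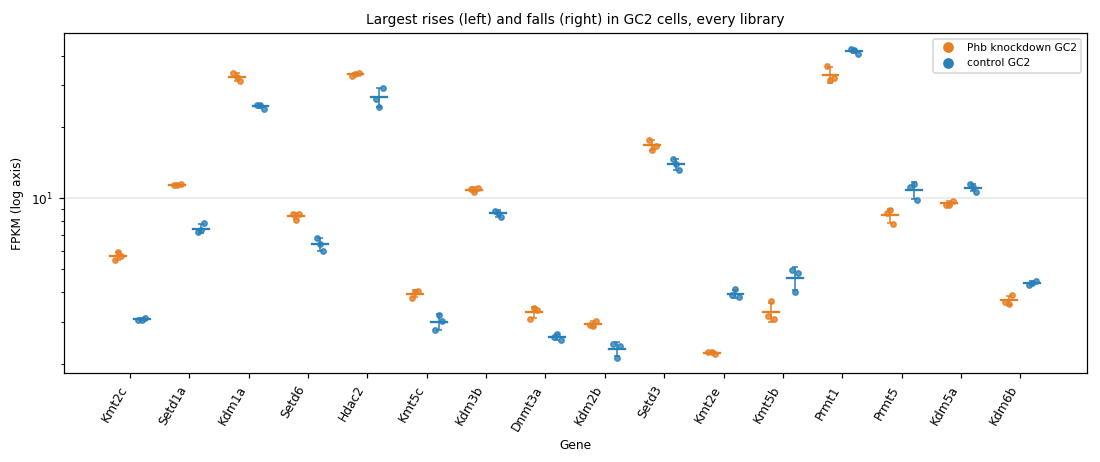
FPKM on a log axis of each library for the largest called rises and falls in GC2 cells, with points for libraries, long lines for the mean and bars for the SD (n = 3). Knockdown (orange) lies left of control (blue), and Kmt2c shows the widest gap among the rises, at 5.47 to 5.92 in knockdown against 3.05 to 3.11 in control cells. No pair of groups of these called genes overlaps, where groups of 44.9% of all tested rows did not.

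H3K4 methyltransferases held the largest called rise and the largest called fall in GC2 cells. Of 8 tested 3 were higher and 1 lower, beside 10.7% and 13.9% of all rows. Kmt2c (ENSMUSG00000038056.15, chromosome 5, 25271798 to 25498783, minus strand) had 5.47, 5.92 and 5.69 FPKM in knockdown cells, against 3.06, 3.05 and 3.11 FPKM in control cells (0.72, SE 0.0514, limma adjusted p = 0.00087). Setd1a, the catalytic subunit of a COMPASS complex, on a row with RP23-325D10.3 and Hsd3b7, had 11.35, 11.39 and 11.47 FPKM in knockdown and 7.17, 7.34 and 7.83 FPKM in control cells (0.56, SE 0.0503, limma adjusted p = 0.0019). Kmt2e had 2.24, 2.24 and 2.2 FPKM in knockdown and 3.89, 4.12 and 3.83 FPKM in control cells (-0.62, SE 0.0523, limma adjusted p = 0.0015). A separate assembled row carries the name Kmt2e too, and with both rows summed the call was lost (limma adjusted p = 0.26). Setd7 rose by 0.24, with 17.2 ± 0.826 FPKM in knockdown and 14.3 ± 0.376 FPKM in control cells.

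Kdm1a, an H3K4 demethylase, was the other rise that held, with 33.92, 32.72 and 31.21 FPKM in knockdown and 24.9, 24.9 and 23.91 FPKM in control cells (0.39, SE 0.0492, limma adjusted p = 0.0048). Kdm3b had 10.91, 10.58 and 11.09 FPKM in knockdown and 8.86, 8.68 and 8.34 FPKM in control cells (0.30, SE 0.048, limma adjusted p = 0.01), and Kdm2b 2.91, 2.89 and 3.04 FPKM in knockdown and 2.41, 2.12 and 2.38 FPKM in control cells (0.26). Kdm5a had 9.39, 9.41 and 9.72 FPKM in knockdown and 11.45, 11.21 and 10.65 FPKM in control cells (-0.20, limma adjusted p = 0.036), and Kdm6b 3.65, 3.56 and 3.88 FPKM in knockdown and 4.31, 4.38 and 4.48 FPKM in control cells (-0.20, limma adjusted p = 0.048). The calls of Kdm3b, Kdm2b, Kdm5a and Kdm6b were lost relative to their chromosome's median, with limma adjusted p-values of 0.31, 0.1, 0.35 and 1.0. Calls in GC2 cells were uneven between chromosomes: 28.2% of rows were higher and 5.42% lower on chromosome 18, the site of Kdm3b, and 6.26% and 19.2% on chromosome 11, the site of Kdm6b.

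The rest of the calls were small. Setd6 had 8.58, 8.13 and 8.6 FPKM in knockdown and 6.8, 6.43 and 5.98 FPKM in control cells (0.35, limma adjusted p = 0.014, and 0.053 without the third knockdown library), and the actin histidine methyltransferase Setd3 17.68, 16.0 and 16.65 FPKM in knockdown and 14.68, 13.93 and 13.2 FPKM in control cells (0.25, limma adjusted p = 0.04). Hdac2 had 33.06, 33.69 and 33.75 FPKM in knockdown and 26.38, 24.43 and 29.38 FPKM in control cells (0.32, limma adjusted p = 0.033). The H4K20 enzymes parted, with Kmt5c at 3.79, 4.03 and 4.04 FPKM in knockdown and 2.76, 3.22 and 3.02 FPKM in control cells (0.31, limma adjusted p = 0.025), and Kmt5b at 3.17, 3.66 and 3.1 FPKM in knockdown and 4.98, 4.03 and 4.81 FPKM in control cells (-0.38, limma adjusted p = 0.041). Prmt1, the main asymmetric dimethylase, had 36.23, 31.61 and 32.13 FPKM in knockdown and 42.73, 42.21 and 40.93 FPKM in control cells (-0.33, limma adjusted p = 0.02). Prmt5 had 8.63, 8.95 and 7.82 FPKM in knockdown and 11.21, 11.51 and 9.85 FPKM in control cells (-0.32, limma adjusted p = 0.041). Groups of the genes in this paragraph, chosen because they were called, did not overlap, where groups of 44.9% of all rows did not. Each of these calls ended in at least 1 alternative.

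DNA methyltransferases in GC2 cells were led by Dnmt1, the most abundant enzyme in both groups, with 45.26, 45.25 and 45.27 FPKM in knockdown and 45.66, 45.27 and 44.54 FPKM in control cells, an overlap. Dnmt3a had 3.1, 3.42 and 3.38 FPKM in knockdown and 2.58, 2.66 and 2.51 FPKM in control cells (0.26, limma adjusted p = 0.028, and 0.082 without the filter). Dnmt3b had 1.26, 1.4 and 1.2 FPKM in knockdown and 1.28, 1.28 and 1.13 FPKM in control cells, and Tet3 4.51, 3.25 and 3.6 FPKM in knockdown and 3.86, 5.1 and 4.62 FPKM in control cells, both without a call. Tet2 stayed under the filter at 0.81, 0.83 and 0.77 FPKM in knockdown and 0.67, 0.73 and 0.67 FPKM in control cells, and Tet1 and Dnmt3l were at 0.04 FPKM or less in each library.

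None of the 6 H3K9 and 2 H3K27 methyltransferases was called by limma in GC2 cells, where 24.5% of all rows were. Of these methyltransferases 0 had an unadjusted p under 0.05. Ehmt2 had 23.74, 25.18 and 25.93 FPKM in knockdown and 21.12, 23.4 and 23.74 FPKM in control cells, Ehmt1 3.51, 3.3 and 3.36 FPKM in knockdown and 3.36, 3.95 and 3.48 FPKM in control cells, and Setdb1 10.14, 10.12 and 9.59 FPKM in knockdown and 9.18, 10.01 and 10.01 FPKM in control cells. Suv39h1 had 14.07, 14.94 and 10.91 FPKM in knockdown and 12.59, 14.67 and 12.41 FPKM in control cells, Suv39h2 2.79, 1.95 and 1.73 FPKM in knockdown and 3.22, 2.32 and 2.91 FPKM in control cells, and Setdb2, with Phf11c, 3.41, 3.42 and 3.46 FPKM in knockdown and 3.17, 3.51 and 3.38 FPKM in control cells. Ezh2 had 16.31, 15.37 and 15.28 FPKM in knockdown and 17.0, 16.15 and 15.51 FPKM in control cells, and Ezh1 2.76, 2.98 and 2.97 FPKM in knockdown and 2.91, 2.7 and 2.34 FPKM in control cells. All 8 pairs of groups overlap, where groups of 44.9% of all rows did not. None of the 7 acetyltransferases or 6 tested sirtuins was called in GC2 cells either, with log2 fold changes of -0.26 to 0.22 and -0.26 to 0.34, while at an unadjusted p under 0.05 limma passed 1 acetyltransferase and 2 sirtuins. Kat7 passed without the third knockdown library (-0.36, limma adjusted p = 0.045). Cbx5 had 7.28, 5.94 and 8.92 FPKM in knockdown and 6.64, 9.93 and 45.2 FPKM in control cells, so its mean rests on the third control. Over all tested members the log2 fold changes in GC2 cells ran between -0.22 and 0.39 for demethylases, -0.18 and 0.32 for zinc-dependent deacetylases, -0.33 and 0.26 for arginine methyltransferases and -0.92 and 0.36 for chromobox proteins. The 10 genes under the filter were Dnmt3l, Tet1, Tet2, Setd4, Kdm4d, Kdm5d, Hdac4, Hdac9, Sirt3 and Cbx7. Rows naming several genes hold 7 of the GC2 members, among them Sirt7 (with Mafg), Hdac10 (with Tubgcp6), Prmt3 and Cbx6 as in spermatocytes.

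On the sex chromosomes of GC2 cells none of the 5 X-linked enzymes was called, where 8.29% of X rows were higher and 16.9% lower, and 1 of the 5 had an unadjusted p under 0.05 in limma. Kdm5c had 9.32, 10.33 and 10.27 FPKM in knockdown and 11.01, 12.42 and 11.98 FPKM in control cells (-0.22, limma adjusted p = 0.073), Kdm6a 4.38, 4.31 and 4.42 FPKM in knockdown and 3.89, 4.08 and 3.87 FPKM in control cells (0.12), Hdac6 6.74, 7.57 and 7.87 FPKM in knockdown and 6.36, 6.49 and 6.63 FPKM in control cells (0.16), and Hdac8 2.33, 2.55 and 2.65 FPKM in knockdown and 3.36, 2.41 and 2.86 FPKM in control cells. Y-linked Kdm5d, under the filter, had 0.08, 0.09 and 0.09 FPKM in knockdown and 0.82, 0.84 and 0.82 FPKM in control cells, 9.54-fold lower in means. Other Y-linked genes, chosen after their values were seen except the listed demethylase Uty, were lower as well, on a chromosome with 11 tested rows of which 27.3% were higher and 36.4% lower. Ddx3y had 0.87, 0.88 and 0.85 FPKM in knockdown and 6.81, 5.85 and 6.96 FPKM in control cells (-2.01, limma adjusted p = 0.00012), Eif2s3y 0.63, 0.69 and 0.84 FPKM in knockdown and 5.49, 5.69 and 5.39 FPKM in control cells (-1.92, limma adjusted p = 0.00011), and Uty 0.12, 0.12 and 0.15 FPKM in knockdown and 1.25, 1.14 and 1.06 FPKM in control cells (-0.93, limma adjusted p = 0.00087). Whether the control and knockdown cultures differ in the content of the Y chromosome was not tested.

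In GC2 cells, where 10.7% of all rows were higher and 13.9% lower, calls among the partners of the enzymes were 1 higher and 1 lower of 9 PRC2 partners, 3 and 1 of 14 PRC1 subunits, 2 and 1 of 9 COMPASS partners, 0 and 0 of 11 readers of DNA methylation (1 at an unadjusted p under 0.05 in limma), 0 and 1 of 17 deacetylase complex subunits, 2 and 2 of 22 other acetyltransferases and partners, 1 and 0 of 12 other methyltransferases, 1 and 1 of 9 other demethylases and 2 and 0 of 7 bromodomain readers. Ash2l averaged 8.68 ± 0.414 FPKM in knockdown and 14.5 ± 0.231 FPKM in control cells (-0.68, SE 0.0515, limma adjusted p = 0.001). Rybp, a subunit of variant PRC1, averaged 18.1 ± 0.356 FPKM in knockdown and 12.8 ± 0.298 FPKM in control cells (0.47, SE 0.0439, limma adjusted p = 0.002). Brd8, a subunit of the Kat5 complex on chromosome 18, averaged 14.3 ± 0.358 FPKM in knockdown and 8.29 ± 0.54 FPKM in control cells (0.72), and Chd3, a remodeller of NuRD on chromosome 11, 13.2 ± 0.63 FPKM in knockdown and 22.1 ± 1.4 FPKM in control cells (-0.70).

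The changes in spermatocytes and in GC2 cells were compared for the 76 enzymes tested in both, with a limma fit of all 12 libraries that tests the difference of the log2 fold changes. It was called for 52 of the 76 (68.4%, against 60.9% of 9666 row pairs): the change in spermatocytes was above that in GC2 cells for 35 and below it for 17 (38.0% and 22.9% of all pairs). The 2 comparisons differ in the kind of cells, the levels of cell type markers and the size of the Phb change, which cannot be told apart here.

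**Figure D5:**
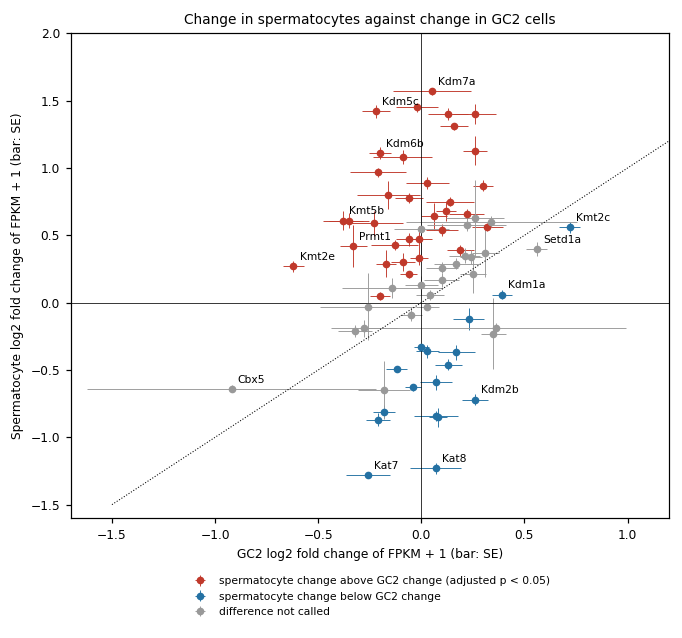
Log2 fold change of FPKM + 1 in spermatocytes (y axis, Phb-cKO over control) against that in GC2 cells (x axis, knockdown over control) for enzymes tested in both, with SE bars and a dotted line of equal change. Colours give the test of the difference, red for a change in spermatocytes above that in GC2 cells, blue for one below it and grey for no call, with Kdm7a (1.57) and Kat7 (-1.28) near the ends of the y axis and Kmt2c (0.72) and Cbx5 (-0.92) at those of the x axis.

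Among the enzymes tested in both, 6 were called higher in both and 1 lower in both. The share of all row pairs called in the same direction is not given here. Of all tested rows 79.4% were called in spermatocytes and 24.5% in GC2 cells. Dnmt3a, Kmt2c, Setd1a, Setd7, Kdm3b and Hdac2 were higher in Phb-cKO spermatocytes and in knockdown GC2 cells, and Prmt5 was lower in both. For Setd1a, Setd7 and Prmt5 the difference between the changes missed the threshold, at -0.16 (SE 0.0744), 0.10 (SE 0.0707) and 0.11 (SE 0.0954). Kmt2c rose by slightly less in spermatocytes, a difference of -0.16 (SE 0.0605, limma adjusted p = 0.045), while Dnmt3a rose by more (0.87, SE 0.13, limma adjusted p = 0.00024).

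Calls in opposite directions are given for 5 enzymes. A called difference was a condition of this choice, so it adds no support. The share of all row pairs with opposite calls is not given here. Kmt2e, Kmt5b, Kdm6b and Prmt1 were higher in Phb-cKO spermatocytes and lower in knockdown GC2 cells, and Kdm2b the reverse. In Phb-cKO spermatocytes Kmt2e had 12.86, 13.11 and 12.51 FPKM against 10.82, 10.03 and 10.55 FPKM in controls, and Kmt5b 6.42, 7.35 and 6.09 FPKM against 3.91, 3.99 and 4.07 FPKM in controls. The values of the other 3 in spermatocytes, and of all 5 in GC2 cells, stand above. The largest differences were those of Kdm5c (1.64, SE 0.0869, limma adjusted p = 1.5e-07), Kdm7a (1.52, SE 0.198) and Kat2b (1.47, SE 0.111) upward and of Kat8 (-1.30, SE 0.134) and Kat7 (-1.02, SE 0.111) downward.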

How the data were processed

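RNA was measured in 12 libraries of 4 groups. The deposited values are FPKM per gene row, with 2 decimals. The submitters' processing notes name HISAT2 (2.1.0), DESeq and the builds GRCm38 and mm10, with no role for each. The counting tool and annotation were not given in the sources used here. FPKM does not correct for composition, so RNA that takes a larger share lowers all other values. Depth per library is not known: 27.4% to 47.5% of low values came within 0.1 of whole fragments, too few to recover it.

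From these values log2(FPKM + 1) was computed and fitted per table with limma (version 3.58.1, R 4.3.3) with a variance trend. Across genes, replicates correlated with a Pearson's r of 0.984 to 0.988 in spermatocytes and 0.924 to 0.937 in GC2 cells, so smaller changes pass in spermatocytes. Where a name had several rows the row with the highest mean was used. The members, gene lists, roles and tests were chosen with earlier results of these data known. Values of every library are given for the DNA methylation, H3K9 and H3K27 classes, for the sex chromosomes, for the 10 largest called rises and falls per table with a higher mean of at least 2 FPKM, and for calls in opposite directions. From the lists of partners up to 2 called genes with the smallest adjusted p were eligible. One member is included in the counts and is not reported or plotted here. Gene positions are from GENCODE M21 on GRCm38. Alternatives are given in the closing section.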

Additional observations from a re-analysis of the deposited data

Results flagged for a closer look

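By the test of the difference itself, the changes in spermatocytes and in GC2 cells differed for 52 of 76 enzymes. That is 68.4%, against 60.9% of all 9666 row pairs. Of the enzymes named here 5 were called in opposite directions in the 2 tables. The difference of the log2 fold changes, spermatocytes minus GC2 cells, was 0.89 for Kmt2e (SE 0.0603, limma adjusted p = 8.2e-07), 0.99 for Kmt5b (SE 0.12, limma adjusted p = 5.5e-05) and 1.31 for Kdm6b (SE 0.0663, limma adjusted p = 1.1e-07). It was 0.75 for Prmt1 (SE 0.184, limma adjusted p = 0.0055) and -0.97 for Kdm2b (SE 0.0699, limma adjusted p = 1.2e-06). A called difference was a condition for choosing these 5. In all 5 no Phb-cKO or knockdown library overlapped its control group in either table. Groups did not overlap for 81.8% of all tested rows in spermatocytes and 44.9% in GC2 cells. The GC2 call of each of the 5 ended in at least 1 alternative, and that of Prmt1 in spermatocytes did too.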

How the results depend on the processing

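Of the 69 calls in spermatocytes 58 held in every alternative run, 11 were lost in at least 1, and the counts stayed within 1.5 times of 47 higher and 22 lower. Leaving out 1 library gave 44 to 48 higher and 20 to 22 lower. Prmt5 and Cbx2 changed sign after chromosome centring (0.11 and 0.06). Among genes not called, Ezh2, Setdb1 and Setd4 changed sign too and were then called higher. Ezh2 was at 0.17 after chromosome centring (limma adjusted p = 0.016). Setdb1 was at 0.10 with quantile normalization, 0.13 with median centring and 0.14 after chromosome centring (limma adjusted p = 0.005 to 0.013). Setd4, at -0.12 in the main fit, was at 0.49 with quantile normalization (limma adjusted p = 0.00086). Quantile normalization, median centring and chromosome centring put the median of all tested rows at 0.28, 0.21 and 0.21 in that order. Of the 15 enzymes not called in spermatocytes 12 were called higher in at least 1 alternative, with lowest limma adjusted p-values of 0.0016 for Dnmt3b, 0.0015 for Kdm1a, 0.00011 for Kdm5a, 0.0011 for Suv39h1, 9.0e-06 for Kmt5a, 0.019 for Kmt5c, 0.011 for Setd3, 0.00086 for Setd4, 0.0035 for Prmt6 and 0.0022 for Cbx3. Setd6, Sirt1 and Sirt4 were not called in any.

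Of the 18 GC2 calls 3 held throughout, and of the 60 enzymes not called there 11 were called in at least 1 alternative. The 11 higher became 6 without a filter, 7 with the replicate block and 5 to 7 without 1 library. The 7 lower became 4 without a filter, 3 each with quantile normalization, median centring and TPM, 2 after chromosome centring, 4 with the replicate block and 2 to 3 without 1 library, where fewer samples enter the fit. Over all GC2 rows the block called 853 higher and 1132 lower, against 1153 and 1496. At a filter of 5 FPKM, where fewer genes were tested, 29 of 41 differences between the tables were called.

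Replicate numbers showed no pairing in spermatocytes, where deviations of same-numbered libraries correlated at -0.0539 to 0.00744. In GC2 cells these correlated at 0.0607 to 0.124, and libraries of different numbers at -0.074 to -0.000867. Every GC2 library thus correlated best with its own number, a hint of pairing only, and the main fit has no such block. With the replicate block GC2 cells had 7 higher and 4 lower, as given above. With the replicate block spermatocytes had 47 higher and 21 lower. Depth is unknown, and with 3 libraries a group small changes may have been missed in GC2 cells.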
